A study of Mus musculus with 27 samples.

Results

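The MHC class I genes followed here are 10 listed genes of antigen presentation: the heavy chains H2-K1, H2-D1, H2-Q4, H2-Q7, H2-Q10 and H2-T23, the light chain B2m, the peptide loading genes Tap1 and Tapbp, and the regulator Nlrc5. They were found by symbol among the 51826 genes of the deposited tables. All 10 passed the filter on low counts that left 16428 genes, and in every library each of them had a count of 307 or more. Bulk RNA sequencing followed the liver of wildtype BALB/C mice through a reproductive cycle, in 27 animals with 1 library each. Females were bred at 10 to 12 weeks, litters were set to an even size, and pups were removed after 10 to 14 days of lactation. The 7 groups are 4 nulliparous mice that had not been pregnant (NUL), 3 mice at lactation day 10 (LAC), mice at 2, 4, 6 and 8 days after weaning, the period the labels call involution (3 in ID2, 4 in ID4, 6 in ID6 and 3 in ID8), and 4 mice taken 4 weeks after weaning (REG). No group carried a genetic change or a drug, per the labels. Each library comes from a whole frozen liver, a mixture of hepatocytes and many other cells, so fewer cells of a type and less RNA per cell cannot be told apart.

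Class I molecules are made of a polymorphic heavy chain, a light chain called beta-2-microglobulin, and a short peptide cut from proteins made inside the cell. Peptides are pumped into the endoplasmic reticulum by the TAP transporter, and tapasin, the product of Tapbp, holds the empty heavy chain beside it until a peptide fits. H2-K1 and H2-D1 encode classical surface molecules that show peptides to cytotoxic T cells. H2-T23 and H2-Q7 encode the nonclassical molecules Qa-1 and Qa-2, H2-Q4 is another Qa-region gene, and H2-Q10 encodes a secreted molecule made mainly by the liver. Interferons and the transactivator NLRC5 act on class I genes through short sites close upstream of the gene start, among them the interferon-stimulated response element, the X box that holds TGACG, and the Y box that holds CCAAT.

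The upstream sequences of the heavy chains whose levels changed are shown because at ID4 H2-Q10 fell against NUL while H2-D1, H2-T23 and H2-Q4 rose; H2-Q7, called at other stages, is shown with them. Each is the run of 250 bases before the RefSeq start on GRCm38.p6, read 5′ to 3′ on the strand of the gene, with the letters of any searched motif in capitals.
H2-D1 (chr17:35262844-35263093, plus strand): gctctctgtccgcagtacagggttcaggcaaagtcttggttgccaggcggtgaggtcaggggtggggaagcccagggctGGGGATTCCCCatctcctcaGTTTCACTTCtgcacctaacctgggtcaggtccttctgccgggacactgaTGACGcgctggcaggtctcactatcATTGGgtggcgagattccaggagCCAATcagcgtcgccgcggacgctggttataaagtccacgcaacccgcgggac
H2-Q4 (chr17:35379367-35379616, plus strand): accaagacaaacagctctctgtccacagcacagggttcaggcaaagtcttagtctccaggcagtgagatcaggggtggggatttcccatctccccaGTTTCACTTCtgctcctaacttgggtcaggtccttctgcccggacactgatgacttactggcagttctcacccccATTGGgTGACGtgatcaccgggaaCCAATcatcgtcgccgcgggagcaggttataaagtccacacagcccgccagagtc
H2-Q7 (chr17:35438905-35439154, plus strand): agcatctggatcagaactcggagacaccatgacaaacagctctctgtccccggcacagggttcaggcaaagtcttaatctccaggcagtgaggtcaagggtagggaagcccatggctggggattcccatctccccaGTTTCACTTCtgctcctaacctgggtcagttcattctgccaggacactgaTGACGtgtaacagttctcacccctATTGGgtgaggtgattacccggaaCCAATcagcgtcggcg
H2-Q10 (chr17:35469839-35470088, plus strand): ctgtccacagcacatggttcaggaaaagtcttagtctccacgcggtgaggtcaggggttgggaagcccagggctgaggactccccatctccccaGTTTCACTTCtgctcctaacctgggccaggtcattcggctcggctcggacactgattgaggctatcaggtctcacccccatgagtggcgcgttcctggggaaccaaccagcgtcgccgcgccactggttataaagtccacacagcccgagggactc
H2-T23 (chr17:36032702-36032951, minus strand): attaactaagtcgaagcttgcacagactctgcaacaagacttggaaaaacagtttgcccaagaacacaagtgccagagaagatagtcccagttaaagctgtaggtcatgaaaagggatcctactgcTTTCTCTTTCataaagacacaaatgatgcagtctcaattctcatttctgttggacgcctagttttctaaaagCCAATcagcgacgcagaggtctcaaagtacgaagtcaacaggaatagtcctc
The motifs were searched on both strands: for the response element core GAAA, 2 bases of any kind and GAAA; for the Y box CCAAT; for the X box TGACG. A site like those bound by NF-kappa B was GGGG, 3 bases of any kind and CCCC. A site like the interferon consensus sequence of class I genes was GTTTC, 1 base of any kind and CTTC. The last of these was added after the sequences had been looked at. No 2 of these matches share letters except where 1 palindromic match is found on both strands.

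In the H2-Q10 window only the match like the interferon consensus sequence was found. The same match stands in H2-K1, H2-D1, H2-Q4 and H2-Q7, and in 0.463% of 32851 mouse promoter windows of this length. CCAAT was found in 8 of the 9 genes with a RefSeq promoter, all but H2-Q10, against 33.8% of all windows. TGACG was found in 6 of 9 against 17.8%, namely H2-K1, H2-D1, H2-Q4, H2-Q7, B2m and Tap1. In H2-K1, H2-D1 and H2-Q7 it lay upstream of ATTGG, which is CCAAT on the other strand. In H2-Q4 it lay downstream of ATTGG, at -73 to -69 against -79 to -75 relative to the start. Its place there thus differs from that in the other 3 genes. The kappa B-like match stood only in H2-K1 and H2-D1, against 0.874% of windows, and the response element core only in H2-T23 and B2m, against 2.98%. Tapbp held CCAAT alone. A match is a string of letters in the reference and no measure of binding, and the windows come from the C57BL/6 reference, not from BALB/C. No promoter of Nlrc5 was read.

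**Figure D1:**
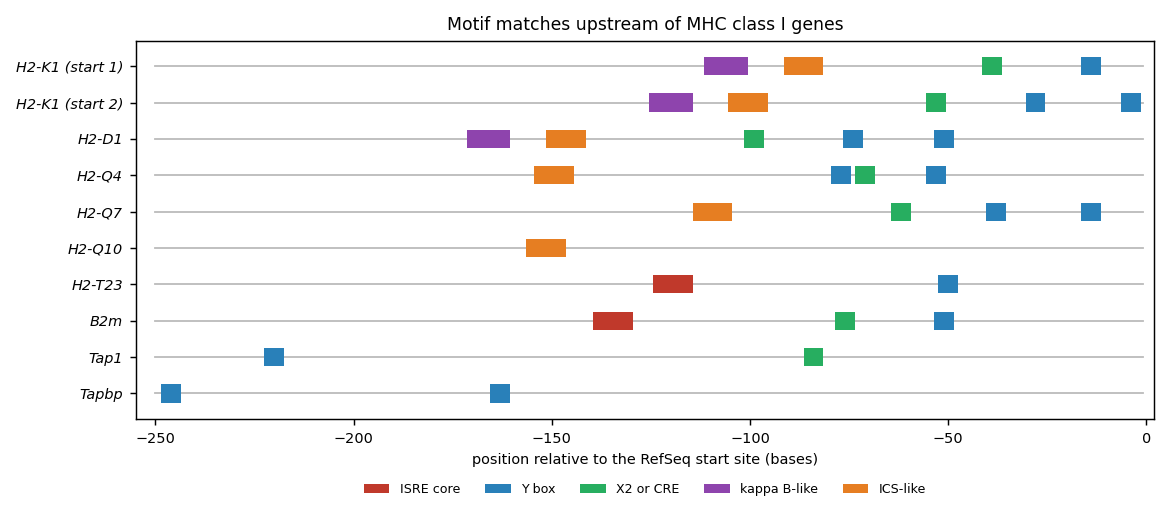
Matches to 5 motifs in the 250 bases upstream of the RefSeq start of 9 class I genes, H2-K1 with its 2 starts. The x axis is the position in bases relative to the start, each grey line is 1 window and each coloured block 1 match; H2-Q10 carries a single block, the match like the interferon consensus sequence (ICS-like), where H2-D1 carries 5 blocks.

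The heavy chain genes are similar copies, and the authors' counting divided reads among them. Of all stretches of 50 bases in its annotated transcripts, H2-Q7 shared 26.4% with another gene, H2-Q4 21.8%, H2-Q10 19.0%, H2-T23 13.6%, H2-D1 12.8% and H2-K1 9.63%. The largest overlap was between H2-Q7 and H2-Q10, with 631 shared stretches. H2-Q7 had a count that was not whole in 27 of 27 libraries, while B2m and Nlrc5 shared no stretch and had whole counts in all, with 0.005 as the tolerance for a whole count. BALB/C carries another class I haplotype than the reference genome and an additional gene, H2-L, so reads of BALB/C alleles are counted on the nearest reference copy; the effect was not tested. The single heavy chain values are therefore uncertain, and sums of copies are given beside them. Overlaps in the annotation add to this: B2m lies within Patl2 and H2-T23 within the antisense gene A930015D03Rik, and Tapbp overlaps Zbtb22. Whether the counting used strand is not given in the sources used here.

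Expected counts totalled 41120700 to 75664500 per library. The hepatocyte markers, 7 genes led by albumin, summed to between 94522.7 and 229498 CPM in all libraries. CPM is the expected count scaled to a common library total with TMM, and values are mean ± SD over animals. The pancreas markers, 10 genes, reached 1458 summed CPM in the library ID2_31 and at most 102.8 in any other. Title numbers of 7 animals lie under 200 (3 of ID8, 2 of ID2 and 2 of ID4) and those of the other 20 at 200 and above; nothing in the labels accounts for the 2 ranges. For ID8 this range and the stage cannot be told apart.

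Per length of transcript, B2m was the most abundant of the 10, with a mean of 1663 TPM over the 27 libraries. TPM values were scaled by the authors for gene length, which allows levels to be compared between genes. H2-Q10 followed with 1018 TPM, then H2-D1 with 298, H2-T23 with 252, H2-K1 with 109.9, Tapbp with 58.2, H2-Q4 with 23.4, Tap1 with 11.8, H2-Q7 with 9.83 and Nlrc5 with 3.50. The secreted H2-Q10 was thus the most abundant heavy chain, above H2-D1 in 27 of 27 libraries. Only 2 neighbours in this order crossed: H2-D1 was above H2-T23 in 25 of 27 libraries, and Tap1 above H2-Q7 in 17 of 27. The 10 genes together held 0.292 ± 0.0207% of a library's expected counts (SD, n = 27).

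Across the 7 stages, 7 of the 10 genes differed at an adjusted p under 0.05 (quasi-likelihood test of edgeR, adjusted by Benjamini-Hochberg over all genes), where 26.97% of all genes tested did. They were H2-Q7 (edgeR adjusted p = 1.75e-05), H2-Q10 (4.62e-05), H2-T23 (1.28e-04), H2-Q4 (2.99e-04), H2-D1 (3.14e-04), Nlrc5 (0.0184) and Tapbp (0.0348). H2-K1 (edgeR adjusted p = 0.0848), Tap1 (0.0504) and B2m (0.529) did not pass. Between the lowest and the highest stage mean the spread was 1.18-fold for B2m and 1.27-fold for H2-K1, and it reached 1.87-fold for H2-Q10. Leaving out single libraries in turn ended the Tapbp call in 8 of 27 fits, with the highest edgeR adjusted p of 0.135 without ID2_39. The Tapbp call was also lost with the title number range (0.0794) or a score of clock genes (0.168) as a covariate in edgeR. The Nlrc5 call was lost in 7 of 11 other settings, among them the deposited effective lengths as offsets (edgeR adjusted p = 0.534) and the covariates for title number range (0.0943) and clock genes (0.171). Each library is 1 animal, and p-values weigh stage differences against the spread between animals as estimated by the fit.

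**Figure D2:**
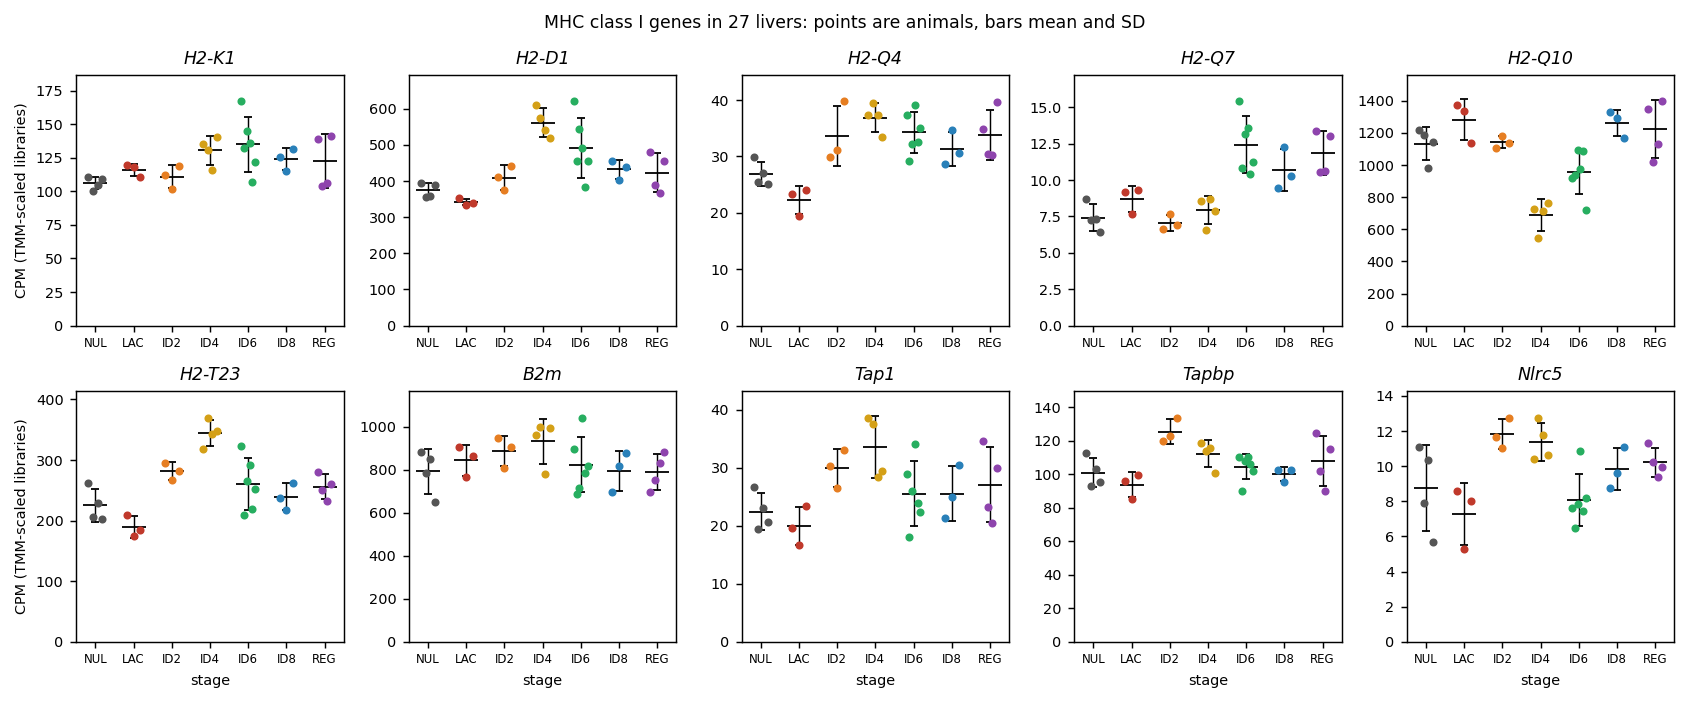
Levels of the 10 class I genes in 27 livers. The y axes are CPM on a linear scale from 0, the x axes the 7 stages, points are animals and bars mean and SD; at ID4 all 4 H2-D1 and H2-T23 points lie above all NUL points and all 4 H2-Q10 points below them.

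At day 4 after weaning the heavy chains H2-D1, H2-T23 and H2-Q4 were higher and the secreted H2-Q10 lower than in nulliparous liver, while H2-K1 and H2-Q7 were not called. Of the 10 genes, 4 were called in ID4 against NUL, 3 higher and 1 lower, where 4.25% of all genes were called, 2.64% higher and 1.61% lower. The median log2 fold change of the 10 was 0.34, against -0.02 over all genes tested, and 6 of them did not overlap between the groups in CPM, as did 11.6% of all genes; H2-K1, 1 of the 6, overlapped in TPM.

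H2-D1, a classical surface heavy chain, had 357, 359, 389.7 and 396 CPM in the NUL livers and 518, 542, 575 and 612 in the ID4 livers. All ID4 animals were above all NUL animals, and H2-D1 rose by a log2 fold change of 0.58 (edgeR adjusted p = 0.00173, SE 0.11). LAC had the lowest values (335, 340.4 and 352 CPM), all under the lowest NUL animal, without a call (-0.13, edgeR adjusted p = 0.549). At ID2 the values were 375, 411 and 442 CPM, and from ID2 to ID4 H2-D1 rose by 0.46 (edgeR adjusted p = 0.0447, SE 0.12). That step was lost in 14 of 27 fits without 1 library, most without ID2_31 (edgeR adjusted p = 0.231). It was also lost in edgeR with effective lengths as offsets, and with sequencing runs or a score of clock genes as a covariate. Among animals numbered 200 and over, with 1 ID2 animal, its log2 fold change was 0.36. At ID6 the lowest, median and highest values were 382, 473 and 620.1 CPM, a log2 fold change over NUL of 0.39 (edgeR adjusted p = 0.0527, SE 0.10), and 1 of the 6 animals fell within the NUL range in CPM and none in TPM. At ID8 (432 ± 26.3 CPM, SD, n = 3) and in REG (423 ± 53.2, n = 4) the means were between those of NUL and ID6.

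H2-T23, which encodes the Qa-1 molecule recognised by receptors of natural killer cells, had 202.6, 206, 229.7 and 263 CPM in NUL and 318, 344, 349 and 370.1 in ID4. The groups did not overlap, and H2-T23 rose by a log2 fold change of 0.62 (edgeR adjusted p = 0.00123, SE 0.11). It was also higher in ID2 (266, 283 and 296 CPM) than in LAC (175, 184 and 209.9), with a log2 fold change of 0.57 (edgeR adjusted p = 0.00332, SE 0.13). From ID4 to ID6 it fell by 0.41 on the log2 scale (SE 0.10, edgeR adjusted p = 0.0116), to a lowest, median and highest value of 210.1, 259 and 324 CPM, with 1 ID6 animal inside the ID4 range. ID4 was the highest stage of H2-T23 and did not overlap the next, ID2.

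H2-Q4, a Qa-region heavy chain, had 19.4, 23.4 and 24.1 CPM in LAC, 25.1, 25.5, 27.1 and 29.9 in NUL, 30.0, 31.1 and 39.8 in ID2 and 33.4, 37.3, 37.4 and 39.4 in ID4. Every LAC animal was below every NUL animal, and every ID2 and ID4 animal was above every NUL animal, though ID2 and NUL overlapped in TPM. Its log2 fold change was 0.59 (edgeR adjusted p = 0.00170, SE 0.12) in ID2 against LAC and 0.46 (edgeR adjusted p = 0.0109, SE 0.11) in ID4 against NUL. The latter call was lost in 5 of 12 other settings, among them limma on log2(TPM + 1) (adjusted p = 0.0589) and edgeR with the title number range as a covariate (adjusted p = 0.0961). Values in ID6, ID8 and REG were 29.3 to 39.2, 28.7 to 34.6 and 30.3 to 39.6 CPM, with no call against NUL.

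H2-K1, the other classical heavy chain, varied least of the 6 heavy chains. Its ID4 animals (115, 131, 135 and 140.1 CPM) were all above the NUL animals (100.05, 105, 109 and 111), but the log2 fold change was not called, at 0.30 (edgeR adjusted p = 0.118, SE 0.11). In ID6 the values were 107 to 167 CPM, and the log2 fold change over NUL was 0.35 (edgeR adjusted p = 0.0846, SE 0.10). DESeq2 called this difference (adjusted p = 0.0404), as it did those of H2-D1 (0.0127) and H2-Q4 (0.0378) in ID6. Among stages that follow each other in the cycle, LAC (116 ± 4.58 CPM, SD, n = 3) and NUL were the only ones whose H2-K1 values did not overlap in CPM. They overlapped in TPM, and the log2 fold change was not called, at 0.13 (edgeR adjusted p = 0.562, SE 0.12).

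H2-Q10, the secreted liver heavy chain, went the other way. It had 985, 1142, 1185 and 1219.6 CPM in NUL and 543, 717, 726 and 766 in ID4, so the highest ID4 animal was below the lowest NUL animal. H2-Q10 fell by 0.72 on the log2 scale (SE 0.12, edgeR adjusted p = 8.02e-04). At ID2, its values were 1105, 1138 and 1181 CPM, and it fell by 0.73 from ID2 to ID4 (SE 0.13, edgeR adjusted p = 0.00210). Among animals numbered 200 and over, with 1 ID2 animal, H2-Q10 had a log2 fold change of -0.58 in this step. From ID4 to ID6 it rose by a log2 fold change of 0.47 (edgeR adjusted p = 0.00900, SE 0.11), to a lowest, median and highest value of 720.3, 958 and 1094 CPM, the lowest of them within the ID4 range in CPM but not in TPM. This call was lost with the title number range as a covariate (log2 fold change 0.42, edgeR adjusted p = 0.0644) and among animals numbered 200 and over, with 2 ID4 animals (0.37, 0.200). ID8 (1171, 1293 and 1328 CPM) did not overlap ID6 in CPM but did in TPM, with a log2 fold change of 0.40 (edgeR adjusted p = 0.0529, SE 0.12). LAC (1141, 1335 and 1376 CPM) overlapped NUL, so the ID4 value was the low point of the series.

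All 4 calls of ID4 against NUL held in each of the 27 fits without 1 library. Among the animals numbered 200 and over alone, with 2 ID4 animals, H2-T23 kept its call (log2 fold change 0.61, edgeR adjusted p = 0.0371). H2-D1 (0.49, edgeR adjusted p = 0.0977), H2-Q4 (0.39, 0.168) and H2-Q10 (-0.62, 0.0513) kept their direction there and missed the threshold. Over the 27 libraries the log2 CPM of H2-D1 and H2-T23 had a Pearson correlation of 0.82, and each had a negative one with H2-Q10 (-0.62 and -0.63). These correlations describe libraries that share the stage differences given above.

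**Figure D3:**
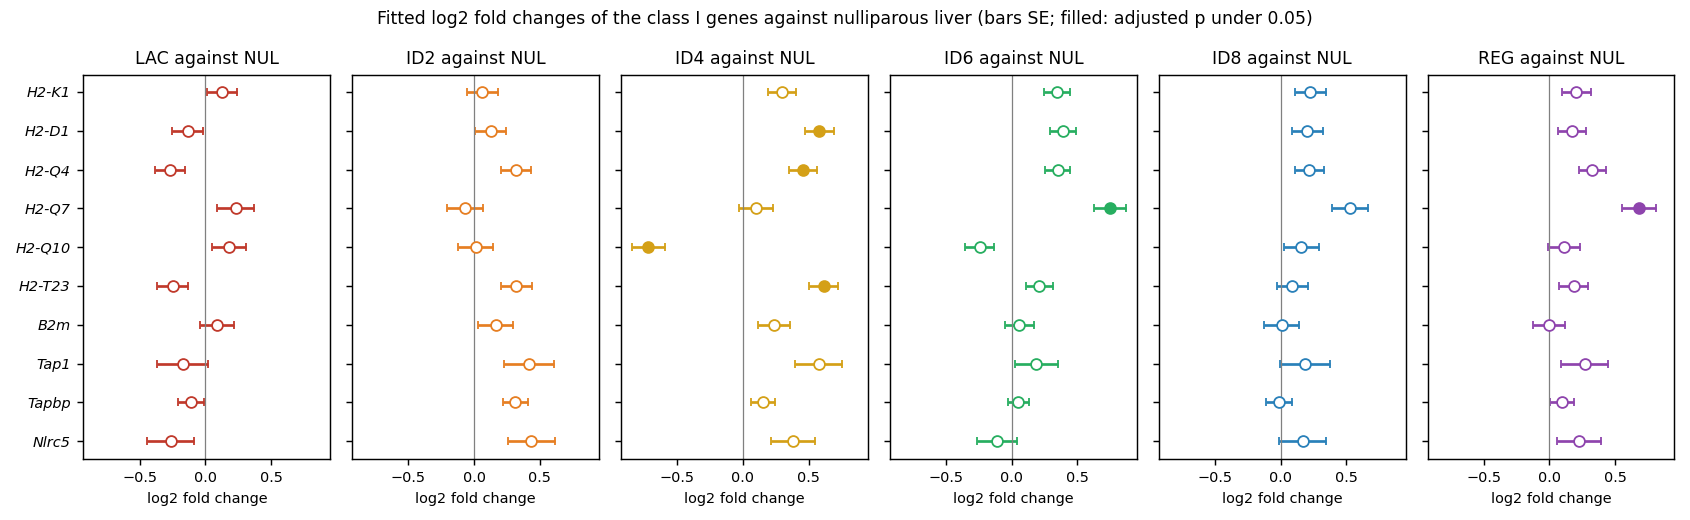
Fitted log2 fold changes of the 10 class I genes against NUL for the other 6 stages. Points are edgeR estimates, bars their SE and filled points have an adjusted p under 0.05; the ID4 panel holds 4 filled points, with H2-Q10 at -0.72 and H2-T23 at 0.62.

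Because the copies share reads, their TPM were summed. The 6 heavy chains together had 1537, 1704, 1737 and 1788 TPM in the NUL livers and 1405, 1469, 1480.4 and 1533 in the ID4 livers. Every ID4 sum was thus below every NUL sum, 1472 ± 52.3 against 1691 ± 109 TPM (SD, n = 4 each), and no other stage was without overlap with NUL. On the scale of CPM, which does not account for length, the ID8 sum alone did not overlap NUL and was higher (2102 ± 73.3, n = 3), and the sums of ID4 and NUL overlapped (1770.0 ± 76.5 against 1874 ± 128). Without H2-Q10 the direction was the opposite: 567.7, 597, 606 and 649 TPM in NUL and 784, 813, 849.5 and 887 in ID4, with no overlap. The 5 chains also summed higher than NUL in ID6 (779 ± 78.3 TPM, n = 6, no overlap) and lower in LAC (490.2, 532 and 537 TPM, no overlap). In CPM the LAC and ID6 sums overlapped NUL and the ID4 sum did not. With 24 further class I heavy chain genes included, the sum was 1764 ± 112 TPM in NUL and 1569.7 ± 54.3 in ID4, with overlap. No test was made on the sums.

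The makeup of the class I transcripts therefore differed by stage. H2-Q10 gave 64.2 ± 2.34% of the TPM of the 6 heavy chains in NUL (SD, n = 4), 68.7 ± 2.02% in LAC (n = 3), 61.7 ± 2.07% in ID2 (n = 3), 43.3 ± 4.38% in ID4 (n = 4), 54.9 ± 5.50% in ID6 (n = 6), 64.2 ± 2.54% in ID8 (n = 3) and 62.8 ± 1.80% in REG (n = 4). The ID4 share was the lowest of the stages and the LAC share the highest. Within a library, where scaling cancels, the TPM of H2-K1 plus H2-D1 divided by that of H2-Q10 were 0.297, 0.320, 0.333 and 0.364 in NUL and 0.642, 0.680, 0.751 and 0.956 in ID4. Every ID4 ratio was above every NUL ratio, and in ID6 the mean was 0.510 ± 0.111 (n = 6). The classical pair did not keep a fixed ratio either. H2-D1 over H2-K1 was 2.17, 2.22 and 2.30 in LAC, 2.55, 2.67, 2.67 and 2.70 in NUL and 2.76, 3.25, 3.35 and 3.52 in ID4. These 3 groups did not overlap, LAC being the lowest and ID4 the highest.

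**Figure D4:**
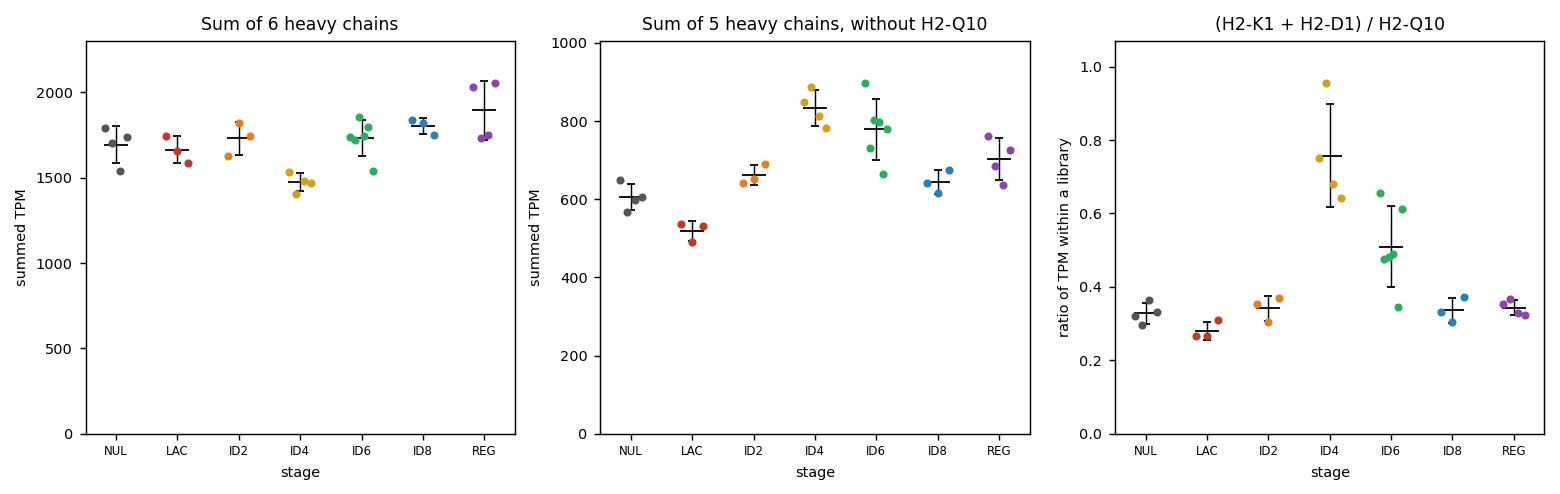
Summed TPM of the 6 heavy chains, of the 5 without H2-Q10, and the ratio of H2-K1 plus H2-D1 to H2-Q10, per animal and by stage. The y axes are linear from 0 and bars are mean and SD; the ID4 points are the lowest group in the first panel and the highest mean in the other 2.

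H2-Q7, which encodes the Qa-2 antigen and was the least abundant of the 6 listed heavy chains, had its highest level in ID6, as H2-K1 did. It had 6.43, 7.23, 7.30 and 8.68 CPM in NUL, 6.62, 6.88 and 7.66 in ID2 and 6.60, 7.91, 8.54 and 8.73 in ID4, all under 9 CPM. In ID6 its lowest, median and highest values were 10.41, 12.2 and 15.4 CPM. Every ID6 animal was above every NUL and ID4 animal, and H2-Q7 rose by a log2 fold change of 0.75 (edgeR adjusted p = 7.16e-04, SE 0.12) over NUL and 0.65 (edgeR adjusted p = 0.00119, SE 0.12) over ID4. It was the 1 gene of the 10 called in ID6 against NUL, where 1.08% of all genes were called and 0.402% were called higher. In that comparison 6 of the 10 had an unadjusted edgeR p under 0.05, as did 1962 of the 16428 genes tested. In ID6 against ID4, 4 of the 10 were called, H2-Q7 and H2-Q10 higher and H2-T23 and Nlrc5 lower, where 8.53% of all genes were called, 3.89% higher and 4.64% lower. Among animals numbered 200 and over none of the 4 was called, with log2 fold changes of 0.58 for H2-Q7, 0.37 for H2-Q10, -0.41 for H2-T23 and -0.47 for Nlrc5.

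At 4 weeks after weaning, 1 of the 10 genes was called against NUL, where 0.0852% of all genes (14) were, 0.0243% higher. It was H2-Q7 again, with 10.54, 10.64, 12.997 and 13.3 CPM in REG against at most 8.68 in NUL, a log2 fold change of 0.68 (edgeR adjusted p = 0.0210, SE 0.13). All 4 REG animals were above all NUL animals. The call was lost in 4 of 27 fits without 1 library, those without NUL_226, NUL_227, REG_203 and REG_239 (highest edgeR adjusted p 0.122, without REG_203). It was also lost in a fit of the 2 groups alone (edgeR adjusted p = 0.248). In ID8 the H2-Q7 values (9.48, 10.28 and 12.3 CPM) were above the NUL range as well, with a log2 fold change of 0.53 (edgeR adjusted p = 0.0778, SE 0.14). Of the other genes H2-Q4 did not overlap between REG and NUL (30.3, 30.4, 34.8 and 39.6 CPM in REG), and its log2 fold change was not called, at 0.33 (edgeR adjusted p = 0.337, SE 0.11). Since H2-Q7 shares more of its transcript with other copies than any other of the 10, how far the division of reads enters its values was not tested.

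None of the 10 listed genes passed the threshold between lactating and nulliparous liver with edgeR. In LAC against NUL, 0 of 10 were called, where 11.2% of all genes were, and DESeq2 called 0. An unadjusted edgeR p under 0.05 was held by 2 of the 10 (H2-Q4 and H2-T23, both lower) and by 3885 of the 16428 genes tested. Limma on log2(TPM + 1) called 1, H2-T23, lower in LAC by 0.34 (adjusted p = 0.0289). The median log2 fold change of the 10 was -0.12, against -0.01 over all genes. The other comparisons without an edgeR call were ID2 against NUL (3.24% of all genes called), ID8 against NUL (0.499%), ID8 against ID6 (4.12%) and REG against ID8 (0.0487%). In that order, 5, 1, 1 and 0 of the 10 had an unadjusted edgeR p under 0.05. Over the 16428 genes tested these numbers were 2773, 2105, 3360 and 1481. DESeq2 called 1 of the 10 in each of the first 3 (Tapbp, H2-Q7 and H2-Q10) and 0 in the last. The percentages are those of edgeR, and the DESeq2 share of all genes is not given here.

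At 2 days after weaning H2-Q4, H2-T23, Tapbp and Nlrc5 were higher than in lactation. In ID2 against LAC, 4 of the 10 were called, all higher, where 16.1% of all genes were called, 8.48% higher. H2-Q4 and H2-T23 have their values above and Tapbp and Nlrc5 below, while H2-K1 (-0.06), H2-Q7 (-0.30), H2-D1 (0.26) and Tap1 were among those not called. The median log2 fold change of the 10 was 0.34 against 0.02 over all genes. The title number range differs between these groups, and only 1 ID2 animal is numbered 200 and over, so no calls among such animals are given. The log2 fold changes of the 4 genes among them were 0.64 for H2-T23, 0.67 for Nlrc5, 0.43 for H2-Q4 and 0.35 for Tapbp. Without ID2_31, the library with pancreas transcripts, all 4 were still called. Clock genes differed between these groups as well: Dbp, a clock output gene, had 23.4 ± 16.9 CPM in ID2 and 3.05 ± 3.14 in LAC (SD, n = 3 each). With a score of clock genes as a covariate H2-T23 alone was called (log2 fold change 0.56, edgeR adjusted p = 0.0305). Of the Kupffer cell and macrophage genes 5 of 8 were higher in ID2 than in LAC, and of the sinusoidal endothelial genes 4 of 6, with 0 lower in either list. The summed CPM of the endothelial list were 281 to 299 in ID2 and 202.6 to 243 in LAC, without overlap, and the part of these cells in the 4 calls was not tested. From ID2 to ID4, 2 of the 10 were called (H2-D1 higher and H2-Q10 lower), where 1.49% of all genes were, 0.645% higher and 0.840% lower.

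Tapbp, which encodes the chaperone tapasin, had 85.3, 96.2 and 99.6 CPM in LAC and 119.7, 123 and 134 in ID2. The groups did not overlap, and Tapbp rose by a log2 fold change of 0.42 (edgeR adjusted p = 0.00634, SE 0.10). Without LAC_213 the edgeR adjusted p was 0.0507. ID2 was its highest stage, above every NUL (93.0, 95.4, 103 and 112 CPM) and every ID4 animal (100.6, 114, 116 and 119) in CPM, while in TPM ID2 and ID4 overlapped. Tap1, which encodes a subunit of the peptide transporter, had 16.8, 19.7 and 23.4 CPM in LAC, 26.5, 30.4 and 33.1 in ID2, 19.4, 20.7, 23.04 and 26.7 in NUL and 28.4, 29.5, 37.6 and 38.7 in ID4. Its LAC and ID2 animals did not overlap, nor did NUL and ID4, yet neither difference passed the threshold: 0.59 (edgeR adjusted p = 0.0530, SE 0.21) and 0.58 (edgeR adjusted p = 0.0649, SE 0.18). DESeq2 called both, with adjusted p of 0.0265 and 0.0189.

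Nlrc5, the transactivator of class I genes, was the least abundant of the 10. It had 5.28, 8.02 and 8.57 CPM in LAC and 11.1, 11.7 and 12.8 in ID2, without overlap, and rose by a log2 fold change of 0.70 (edgeR adjusted p = 0.0144, SE 0.19). In TPM the groups overlapped. This call was lost without LAC_213 (edgeR adjusted p = 0.116) and without ID2_39, and in 7 of 12 other settings, among them the one with effective lengths as offsets (edgeR adjusted p = 0.411). From ID4 (10.41, 10.7, 11.8 and 12.7 CPM) to ID6 (lowest, median and highest 6.48, 7.75 and 10.9) it fell by 0.49 on the log2 scale (SE 0.15, edgeR adjusted p = 0.0381), with 1 ID6 animal inside the ID4 range. That call was lost in 9 of 27 fits without 1 library and in 7 of 12 other settings, among them limma on log2(TPM + 1) (adjusted p = 0.443) and edgeR with effective lengths as offsets (adjusted p = 0.373). In NUL the 4 animals ranged widely, from 5.67 to 11.1 CPM, and covered most of the values of the other stages.

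B2m, the light chain shared by all these heavy chains, was not called in any of the 11 comparisons. Its values were 650.2, 784, 853 and 884 CPM in NUL, 765, 863 and 904 in LAC, 810.4, 905 and 946 in ID2 and 779, 960.4, 995 and 1001 in ID4. In ID6, ID8 and REG they ran from 689.8 to 1043, 695 to 878 and 696 to 884 CPM. All neighbouring stages overlapped, and the log2 fold change of ID4 over NUL was 0.24 (edgeR adjusted p = 0.300, SE 0.12). B2m TPM were 2.66 ± 0.321 times the summed TPM of the 5 heavy chains other than H2-Q10 in NUL (SD, n = 4). This ratio was 3.05 ± 0.200 in LAC (n = 3) and 2.14 ± 0.206 in ID4 (n = 4). Its means were 2.61 in ID2, 2.22 in ID6, 2.37 in ID8 and 2.33 in REG, and NUL and ID4 overlapped. Against all 6 heavy chains the direction was the opposite, with 0.955 ± 0.149 in NUL and 1.216 ± 0.161 in ID4. That ID4 mean was the highest of the stages, and NUL and ID4 overlapped here too.

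Other genes of the pathway were taken from lists. Of 24 further H2 class I heavy chain genes found by symbol, 10 could be tested, 9 were at 0 in all libraries, and 5 of the 10 differed among the stages. H2-T22, a nonclassical heavy chain, had 52.6 ± 6.79 CPM in NUL and 78.7 ± 2.47 in ID4 (SD, n = 4 each) and rose by a log2 fold change of 0.58 (edgeR adjusted p = 4.85e-04, SE 0.09). H2-Q1 was higher in LAC than in NUL by 1.13 (edgeR adjusted p = 0.00163, SE 0.23). Of 14 genes of peptide supply and loading, 6 differed among the stages, and in ID4 against NUL 2 were higher and 1 lower. These and the next counts stand beside 26.97% of all genes differing among the stages and 4.25% called in ID4 against NUL. Those higher were Psmb8, a catalytic subunit of the immunoproteasome, at 0.55 (edgeR adjusted p = 0.0142, SE 0.13), and Erap1, a peptidase that trims peptides for class I, at 0.31 (edgeR adjusted p = 0.0147, SE 0.07). Tpp2, a cytosolic peptidase, had a log2 fold change of -0.33 (edgeR adjusted p = 0.0331, SE 0.09). Psmb9, whose gene overlaps Tap1 on the other strand, rose in ID2 against LAC by 0.92 (edgeR adjusted p = 0.00277, SE 0.20). Of 23 regulators of class I genes 7 differed among the stages, and 2 were called in ID4 against NUL, both transcription factors of the interferon regulatory family: Irf2, higher by 0.39 (edgeR adjusted p = 0.00515, SE 0.08), and Irf8, higher by 0.67 (edgeR adjusted p = 0.00973, SE 0.15). Of 5 genes for heavy chains outside the H2 complex that pair with B2m, 2 differed among the stages, Mr1 and Hfe, and 0 were called in ID4 against NUL.

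Of 24 interferon-responsive genes, 18 differed among the stages. In ID2 against LAC 13 were higher and 1 lower (8.48% of all genes were higher), with a median log2 fold change of 0.84, the largest of the named ones being Zbp1, a nucleic acid sensor, at 1.86 (edgeR adjusted p = 7.23e-04, SE 0.33), and Gbp2, a guanylate-binding protein, at 1.57 (edgeR adjusted p = 7.68e-04, SE 0.29). In LAC against NUL 4 were lower and 0 higher, with a median of -0.37, where 11.2% of all genes were called. In ID2 against NUL 1 was called, higher, with a median of 0.42, where 3.24% of all genes were called. In ID4 against NUL 1 was called, 23 of 24 had a positive log2 fold change and the median was 0.51. From ID4 to ID6 7 were lower and 0 higher, where 4.64% of all genes were lower. The summed CPM of the list were 685 to 1028 in NUL, 731 to 859.8 in LAC, 830.0 to 1112 in ID2, 977 to 1245 in ID4 and 693 to 1151 in ID6, so the NUL and ID4 sums overlapped. The 6 class II genes, which present peptides to helper T cells, were all lower in LAC than in NUL, where 11.2% of all genes were called in either direction, with a median log2 fold change of -1.29, and 4 of 6 rose from ID4 to ID6, where 3.89% of all genes were higher. H2-Aa fell most in LAC among the named ones, by 1.54 on the log2 scale (SE 0.29, edgeR adjusted p = 0.00142). Whether class I and class II genes differ in their change was not tested.

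Markers of other cells moved at the same stages. Of 8 Kupffer cell and macrophage genes, 6 were higher and 0 lower in ID4 than in NUL, with summed CPM of 616 to 679 in ID4, 498 to 788 in ID6, 361 to 465 in NUL, 341 to 420.1 in ID2 and 245 to 348 in LAC. The ID4 and ID6 livers did not overlap NUL, and none of the 8 genes was at 0. Adgre1, a macrophage surface receptor, rose in ID4 by 0.67 (edgeR adjusted p = 0.00278, SE 0.13). Their part in the higher H2-D1, H2-T23 and H2-Q4 was not tested. Hepatocyte marker sums overlapped between ID4 (97588 to 114070.0 CPM) and NUL (99404 to 128235) and stood higher in LAC (186017 to 229498), with 0 of 7 called in ID4 against NUL. In ID2 the sums were 141517 to 155899, above every ID4 and NUL sum. From ID2 to ID4, 1 of the 7 was called higher and 1 lower, where 1.49% of all genes were called. The median log2 fold change of the 7 was -0.21, and the part of hepatocytes in the H2-Q10 values was not tested. Most of the sum was albumin; in LAC against NUL 1 of the 7 was called higher and 1 lower, the latter Cyp2e1, a cytochrome P450, with 1495 ± 109 CPM in LAC (SD, n = 3) and 4184 ± 858 in NUL (n = 4). In LAC against NUL, where 11.2% of all genes were called, 3 of 9 T cell, 2 of 7 tested NK cell, 2 of 5 B cell, 4 of 5 dendritic cell, 5 of 8 Kupffer cell and macrophage and 3 of 4 stellate cell genes were lower and 0 genes of these lists were higher, with summed CPM of 2.09 to 2.63 against 4.57 to 5.99 for the T cell list. The NK cell list held 1 gene at 0 in every library. The 5 erythroid genes were all lower in ID6 (53.1 to 264 summed CPM) than in ID4 (407 to 1027), where 4.64% of all genes were lower. Against NUL (335 to 712), 4 of 5 were lower in ID6 and 4 of 5 in ID8 (19.9 to 35.0). Of all genes, 1.08% and 0.499% were called in these comparisons. In REG against ID8 4 of 5 were higher, where 0.0487% of all genes were called. The part of the erythroid genes in the class I differences between these stages was not tested.

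**Figure D5:**
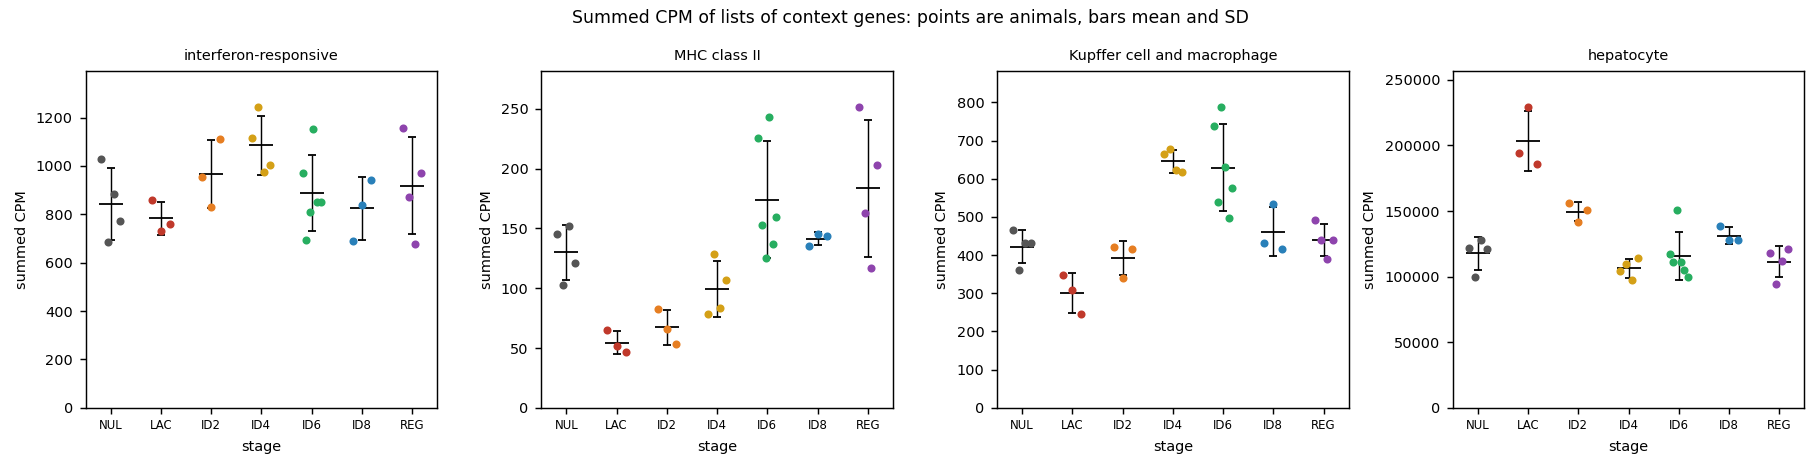
Summed CPM of 4 lists by animal and stage: interferon-responsive, MHC class II, Kupffer cell and macrophage, and hepatocyte genes. The y axes are linear from 0 and bars are mean and SD; the ID4 and ID6 macrophage sums lie above all NUL sums, while the hepatocyte sums of ID4 and NUL overlap.

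The genes whose pattern was most like a member's were ranked by the Pearson correlation of log2 CPM over the 27 libraries, among 10462 genes. H2-Q10 was most like Dbi, an acyl-CoA binding protein (0.94), followed by Tecr, Ugt1a5, Echdc1 and Pmvk (0.91 to 0.92). Nlrc5 was most like Xaf1 (0.87) and Psmb9 (0.81), then Hist2h2aa2, Trafd1 and Rnf169. H2-K1 was most like Igbp1 (0.79), Eef1a1, Apoe, Ddrgk1 and Hcls1, and B2m most like Laptm4a (0.77), Iigp1, Rhog, Slirp and Trim12c. The libraries share stage, depth and liver makeup, so these values describe likeness over this series only.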

How the data were processed

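Bulk RNA was sequenced from 27 livers in 7 groups. The expected count of each gene is the authors' estimate of its reads, per the file headers, with no scaling between libraries. In TPM the authors also took account of gene length, and the effective length is the gene's length allowing for fragments, both per the file headers of the deposited tables. Per the submitters' processing notes the tools were STAR 2.6.1a and RSEM 1.3.1 and the build mm10, GRCm38; strand and annotation release are not given in the sources used here.

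edgeR 4.0.16 (R 4.3.3) was run on the rounded expected counts: filterByExpr with the stage as group (16428 genes kept), TMM, and 1 robust quasi-likelihood fit of all 27 libraries. The joint test and 11 comparisons were two-sided, with Benjamini-Hochberg adjustment over all 16428 genes and calls at an adjusted p under 0.05. DESeq2 1.42.0 and limma 3.58.1 on log2(TPM + 1) or log2(TPM + 0.1) were alternatives, with others described in the closing section. Only the edgeR fit was tried on simulated counts, for ID4 against NUL alone, and the outcome is not given here. Symbols came from GENCODE M21 (51633 of 51826 identifiers matched), promoters from RefSeq, GRCm38.p6 (9 of 10 genes matched). The genes, lists and tests were chosen with earlier results of these data known. All 10 genes were named, and from each list up to 4 genes with the smallest joint p. Expected counts totalled 41120700 to 75664500 per library, with at least 307 for each of the 10 genes in each library; some genes of the cell type lists had few reads, where counting error is large. Libraries carry no molecular identifiers.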

Additional observations from a re-analysis of the deposited data

How the results depend on the processing

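Of the 12 settings other than leaving out a library, none turned the direction of a called gene. The number of the 10 genes that differed among the stages was 5 to 8 in the 11 of them that allow a joint test, the 1 restricted to animals numbered 200 and over being without ID8, and 6 to 8 without single libraries. Several counts of calls moved, and the cause was not tested. The share of all genes called under each other setting is not given here, so these counts are no result about the 10 genes. Restriction to animals numbered 200 and over, with 20 libraries, left 1 call in ID4 against NUL (4 with all libraries) and 0 in REG against NUL (1) and ID6 against ID4 (4). ID2 has 1 such animal, so for its comparisons only log2 fold changes are given. Log2 fold changes there were, for example, -0.58 (-0.73 with all) for H2-Q10 in ID4 against ID2, with 1 ID2 animal assumed to vary like the other groups, 0.58 (0.65) for H2-Q7 in ID6 against ID4 and 0.67 (0.68) for H2-Q7 in REG against NUL. It could not be run for ID8, which has no such animal. With the title number range as a covariate there were 3 in ID4 against NUL, as with limma, 2 in ID2 against LAC and 2 in ID6 against ID4. DESeq2 called 4 in ID6 against NUL (1 with edgeR) and 1 each in ID2 against NUL, ID8 against NUL and ID8 against ID6 (0 with edgeR). Limma on log2(TPM + 1) and on log2(TPM + 0.1) called 1 in LAC against NUL, 3 in ID6 against NUL and 1 in ID8 against ID6. With every gene of at least 1 count kept there were 2 in ID6 against NUL. The clock covariate gave 3 in ID6 against NUL, 1 in ID2 against LAC and 1 in ID4 against ID2, and the effective length offset and the sequencing run covariate 1 each in ID4 against ID2. At an adjusted p under 0.01 there were 0 in REG against NUL, 1 in ID4 against ID2 and 2 in ID6 against ID4, and with the 2 groups alone 0 in REG against NUL. Without single libraries the counts ran from 0 to 1 in ID2 against NUL, 4 to 5 in ID4 against NUL, 1 to 3 in ID6 against NUL (3 without ID6_230), 0 to 1 in REG against NUL, 2 to 5 in ID2 against LAC (2 without LAC_213), 1 to 2 in ID4 against ID2, 3 to 5 in ID6 against ID4 and 0 to 1 in ID8 against ID6. The summed TPM of the 6 heavy chains over NUL was 0.870 in ID4, 0.983 in LAC, 1.02 in ID2 and ID6, 1.119 in REG, and 1.07 in ID8, where for ID8 leaving out single libraries gave 1.03 to 1.09. As a sum of CPM the ratio was 0.945 in ID4, 1.05 in LAC and 1.122 in ID8. Without H2-Q10 it was 1.38 in ID4, the reverse direction, 0.859 in LAC, 1.09 in ID2 and 1.29 in ID6. For H2-K1 and H2-D1 it was 1.34 in ID4, again reversed, 0.902 in LAC and 1.34 in ID6. No paired analysis was possible because no title number occurs in more than 1 group.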
